A study of Mus musculus with 6 samples.

Results

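*Cxcl12* encodes a secreted chemokine, and *Cxcr4* and *Ackr3* encode its receptors. The 3 genes were taken from the deposited table of 28777 genes by Ensembl identifiers that map to *Cxcl12* and its receptors. All 3 passed the filter on low counts, which kept the 28157 genes with more than 5 reads over all libraries. CXCR4 is a G protein-coupled receptor through which the chemokine directs the migration of cells. ACKR3 binds the same chemokine and takes it up into the cell, signals without the usual coupling to G proteins, and so shapes how much ligand is left for CXCR4. In the developing heart the axis is known for guiding neural crest cells into the outflow tract and for the growth of the coronary arteries.

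The libraries were made from the cardiac outflow tract (OFT) of E13.5 mouse embryos, dissected below the conal cushions. One group was labelled mutant, *Notch1*+/-*; Nos3*-/-, heterozygous for a knockout allele of the Notch receptor gene *Notch1* and null for *Nos3*, which encodes endothelial nitric oxide synthase. The other was labelled wildtype and came from littermates that carry neither allele, and the colonies were kept on a C57/BL6J background. Both alleles are present in every cell of the embryo, so the comparison cannot place an effect in a cell type. Each group had 3 libraries, and each library pooled 3 OFTs after genotyping, so the spread within a group is between pools and not between embryos. The question asked of the 3 genes was whether their mRNA levels differed between the 2 genotypes.

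The targeted genes were examined first, in CPM, counts taken relative to each library's total and scaled by the trimmed mean of M-values (TMM) here and below. *Notch1* was at 74.3, 88.2 and 83.6 CPM in wildtype replicates 1 to 3 and at 155, 161 and 139 CPM in mutant replicates 1 to 3. It was thus higher in all 3 libraries labelled mutant, against the direction that the loss of an allele would give in a count of whole transcripts (log2 fold change 0.89, SE 0.10, adjusted p = 0.0313 by edgeR's quasi-likelihood test, Benjamini-Hochberg adjusted over the genes tested). Whether the exons that were counted lie within the altered part of the allele was not tested. *Nos3* was at 31.8, 47.2 and 48.1 CPM in the libraries labelled wildtype and at 22.1, 22.0 and 20.4 CPM in those labelled mutant (log2 fold change −0.98, SE 0.15, adjusted p = 0.128 by the same edgeR test with Benjamini-Hochberg adjustment). Its groups did not overlap, and reads on *Nos3* were still present under the null label. Every direction given here rests on these labels.

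Total counts ran from 34729103 in wildtype replicate 3 to 44387490 in wildtype replicate 1. The libraries of a group did not lie close together. On the first principal component of log2 CPM, which held 61.8% of the variance over the 16655 genes that averaged 1 CPM or more, wildtype replicate 3 stood at 32.4 and wildtype replicate 1 at −4.76, while the libraries labelled mutant ran from −24.9 to −1.60. Over all genes edgeR's quasi-likelihood test called 6 of the 28157 at an adjusted p of at most 0.05, or 0.0213%. Without wildtype replicate 1 it called 2593.

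None of the 3 genes was called by edgeR, limma-voom (0.0178% of all genes called) or DESeq2's Wald test (2.66%), and with TMM 0 of the 3 had an unadjusted p under 0.05 in edgeR, a mark that 16.1% of all genes reached. All 3 fold changes were above 0, and the groups of all 3 genes overlapped, whereas for 10.7% of all genes every library labelled mutant lay above every library labelled wildtype.

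*Cxcl12*, the ligand (ENSMUSG00000061353), lies on the plus strand of chromosome 6 in mm10, at chr6:117168535-117181367, with 4 annotated transcripts that together cover 8.18 kb of exon. The counts do not separate the transcripts. It was at 341, 245 and 189 CPM in wildtype replicates 1 to 3, and at 327, 368 and 206 CPM in mutant replicates 1 to 3. With libraries numbered by their titles, replicate 3 was the lowest of each group. The highest value under the wildtype label exceeded 2 of the 3 under the mutant label. The means were 258 ± 77.2 CPM under the wildtype label and 300 ± 84.2 CPM under the mutant label (SD, n = 3 each). The difference was smaller than the spread within either group (log2 fold change 0.22, SE 0.23, 95% interval −0.30 to 0.73, adjusted p = 0.687 by edgeR's quasi-likelihood test, Benjamini-Hochberg adjusted). The 2-sided exact permutation test over the 6 libraries gave p = 0.6, where 3 libraries against 3 cannot give less than 0.1. These data therefore allow a fold between 0.814 and 1.66.

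The libraries within a group differed more in *Cxcl12* than the groups did. Its highest library exceeded its lowest 1.81-fold among those labelled wildtype and 1.79-fold among those labelled mutant. Its pooled SD of log2 CPM within groups was 0.43, larger than that of 95.5% of the 16655 genes that averaged 1 CPM or more, whose median was 0.15. Its lowest count in a library was 6128 reads. The fold change also moved with single libraries, to 0.47 on the log2 scale without wildtype replicate 1 and to 0.03 without wildtype replicate 3.

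**Figure D1:**
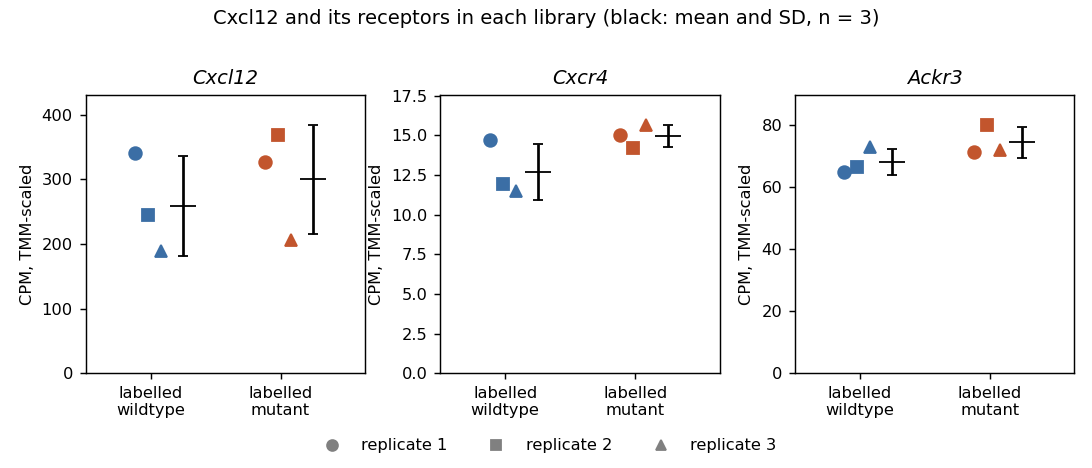
TMM-scaled CPM of *Cxcl12*, *Cxcr4* and *Ackr3* (vertical axes, from 0) in each library labelled wildtype (blue) or mutant (orange), with the mean and SD of each group in black (n = 3) and a symbol for each replicate number. *Cxcl12* spans 189 to 368 CPM with replicate 3 lowest in each group, while the receptor genes stay within narrower ranges and their groups overlap.

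Markers of the cushion mesenchyme, the tissue that fills the outflow tract cushions, varied over the same libraries. The 10 markers of that list summed to 9478, 6500 and 4800 CPM in wildtype replicates 1 to 3 and to 10413, 11386 and 8782 CPM in mutant replicates 1 to 3. Wildtype replicate 3 was the lowest library and mutant replicate 2 the highest for both the list and *Cxcl12*, and replicate 3 was the lowest of each group for both. The libraries were not in the same order throughout, since mutant replicate 3 lay above wildtype replicate 2 in the list and below it in *Cxcl12*. *Col3a1*, a fibrillar collagen gene, was the most abundant marker at a mean of 2916 CPM, and no gene of the list was at 3 or fewer counts in every library. All 10 had a fold change above 0 and 7 an unadjusted p under 0.05 in edgeR, a mark that 16.1% of all genes reached. However, edgeR and limma-voom called 0 of the 10 and DESeq2's Wald test 1, against 2.66% of all genes. The list's median log2 fold change was 0.59 against 0.01 over all genes tested. *Pdgfra*, a growth factor receptor gene of mesenchyme, was at 298, 159 and 106 CPM under the wildtype label and 306, 326 and 227 CPM under the mutant label.

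Heart muscle markers had their extremes in the same libraries, the other way round. The 10 markers of the myocardial list summed to 20436, 22705 and 29231 CPM in wildtype replicates 1 to 3 and to 17372, 14939 and 19928 CPM in mutant replicates 1 to 3. Wildtype replicate 3, lowest in *Cxcl12*, was highest here, and mutant replicate 2, highest in *Cxcl12*, was lowest. The order of the sums was not reversed throughout, since mutant replicate 3 lay below wildtype replicates 1 and 2 in both. In the mean centred log2 level over the 10 genes, mutant replicate 3 (0.15) lay above wildtype replicates 1 (−0.01) and 2 (0.14). On that scale wildtype replicate 1 lay above mutant replicate 1 (−0.30), as it did in *Cxcl12*. *Myh7*, a heavy chain of cardiac myosin, was the most abundant at a mean of 6910 CPM, and the median log2 fold change was −0.51. Of the 10, edgeR and limma-voom called 0, DESeq2's Wald test called 5, and 8 had an unadjusted p under 0.05 in edgeR. Of all genes, DESeq2's Wald test called 2.66%, and 16.1% had an unadjusted p under 0.05 in edgeR. Endothelial markers varied less, with 10 genes summing to between 999 CPM in wildtype replicate 1 and 1328 CPM in wildtype replicate 3, *Cdh5*, an endothelial cadherin gene, as the most abundant at 240 CPM, a median log2 fold change of −0.05, 2 at an unadjusted p under 0.05 (both higher, with 8 of 10 lower) and 0 called by edgeR, limma-voom or DESeq2's Wald test. The part of these tissues in the spread of *Cxcl12* was not tested. In pooled tissue fewer cells of a type and less mRNA per cell cannot be told apart.

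**Figure D2:**
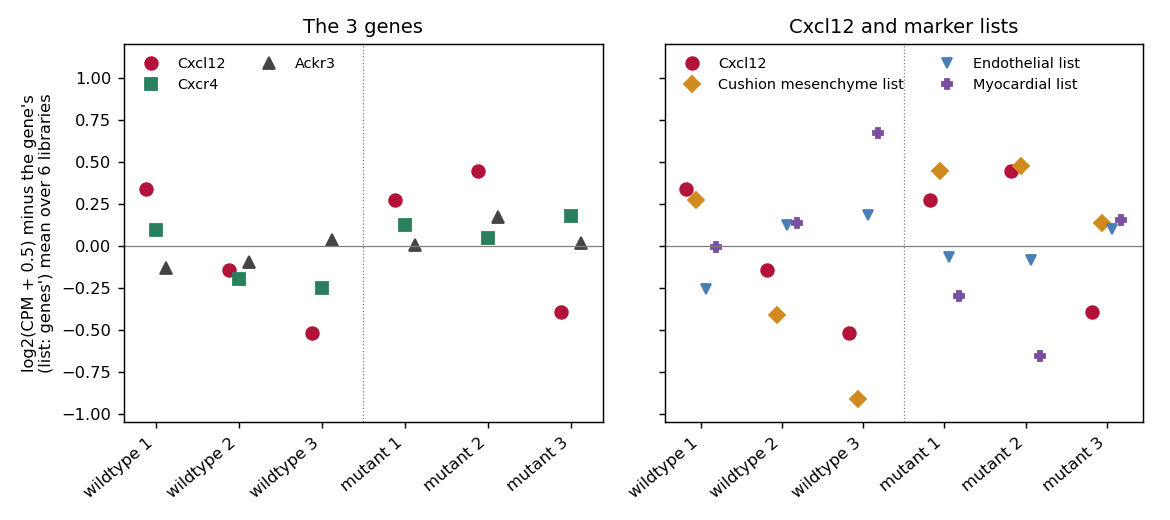
log2(CPM + 0.5) minus its mean over the 6 libraries (vertical axes), for the 3 genes on the left and for *Cxcl12* beside the mean over the genes of 3 marker lists on the right, with libraries labelled wildtype left of the dotted line. *Cxcl12* runs from −0.52 in wildtype replicate 3 to 0.44 in mutant replicate 2, the cushion mesenchyme list is also lowest and highest in these libraries, and the myocardial list is highest and lowest in them.

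*Cxcr4*, the signalling receptor (ENSMUSG00000045382), lies on the minus strand of chromosome 1 at chr1:128588199-128592293, with 2 annotated transcripts and 1.81 kb of exon. It was at 14.7, 11.9 and 11.5 CPM in wildtype replicates 1 to 3, and at 15.0, 14.2 and 15.6 CPM in mutant replicates 1 to 3. Wildtype replicate 1 lay among the libraries labelled mutant, and the other 2 labelled wildtype lay below all of them. The means were 12.7 ± 1.76 CPM under the wildtype label and 15.0 ± 0.703 CPM under the mutant label (SD, n = 3 each). The gene did not pass the test (log2 fold change 0.23, SE 0.13, 95% interval −0.05 to 0.52, adjusted p = 0.394 by edgeR's quasi-likelihood test, Benjamini-Hochberg adjusted). The 2-sided exact permutation test gave p = 0.2, where the smallest possible is 0.1. Without wildtype replicate 1 the log2 fold change was 0.35 and the adjusted p 0.0773 by edgeR with Benjamini-Hochberg adjustment, the lowest for this gene over 17 alternatives that reached up to 0.696. The interval allows a fold between 0.965 and 1.43. The gene's reads were fewer than those of the ligand, 372 to 654 in a library.

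*Ackr3*, the receptor that takes up the ligand (ENSMUSG00000044337), lies on the plus strand of the same chromosome at chr1:90203980-90216751, with 2 annotated transcripts and 3.35 kb of exon. It was at 64.9, 66.5 and 73.0 CPM in wildtype replicates 1 to 3, and at 71.3, 80.1 and 72.0 CPM in mutant replicates 1 to 3. Wildtype replicate 3 lay above 2 of the libraries labelled mutant, and mutant replicate 2 was the highest of all. The means were 68.1 ± 4.29 CPM under the wildtype label and 74.5 ± 4.90 CPM under the mutant label (SD, n = 3 each). *Ackr3* did not pass the test either (log2 fold change 0.13, SE 0.10, 95% interval −0.08 to 0.34, adjusted p = 0.536 by edgeR's quasi-likelihood test, Benjamini-Hochberg adjusted). The 2-sided exact permutation test gave p = 0.3, with 0.1 as the smallest possible. It was the steadiest of the 3 genes, with a pooled SD of log2 CPM within groups of 0.09, larger than that of 18.3% of genes, against 0.14 and 43.2% for *Cxcr4*. The log2 fold change was 0.07 without mutant replicate 2 and 0.24 with library size alone as the scale. The interval allows a fold between 0.944 and 1.27.

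Scaling bears on whether the receptor groups overlap. With CPM taken from library size alone, the median over all genes moved to a log2 fold change of 0.11, from 0.01. On that scale *Cxcr4* was at 14.7, 11.4 and 10.7 CPM under the wildtype label and at 15.6, 15.0 and 16.0 CPM under the mutant label, and its groups did not overlap. *Ackr3* was at 65.0, 63.7 and 68.2 CPM and at 73.9, 84.5 and 73.5 CPM, again without overlap. The exact permutation p was 0.1 for each, the smallest that 3 libraries against 3 can give. Every library labelled mutant lay above every library labelled wildtype for 15.2% of all genes on that scale. On that scale edgeR gave an unadjusted p of 0.0375 for *Cxcr4* and 0.0350 for *Ackr3*, so that 2 of the 3 genes passed 0.05 where 0 did with TMM. The share of all genes under 0.05 was 16.2% on that scale, against 16.1% with TMM. With DESeq2's size factors both receptor genes overlapped between groups as with TMM. No annotated gene overlaps any of the 3 genes or lies within 3 kb, so their reads are not shared with a neighbour on either strand.

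Levels can be compared between genes per kilobase of exon. *Cxcl12* averaged 34.2 ± 9.27 CPM per kilobase over the 6 libraries (SD), *Ackr3* 21.3 ± 1.61 and *Cxcr4* 7.65 ± 0.951. Of the 28105 genes tested that had a length, 92.7% were lower than *Cxcl12*, 89% lower than *Ackr3* and 75.1% lower than *Cxcr4*. The order held within each of the 6 libraries, and it also held in CPM without length (279, 71.3 and 13.8 CPM). The gap between ligand and *Ackr3* was small in some libraries. *Cxcl12* exceeded *Ackr3* per kilobase 2.16-fold in wildtype replicate 1 but 1.06-fold in wildtype replicate 3, and 1.87-fold, 1.88-fold and 1.17-fold in mutant replicates 1 to 3, so these neighbours in the order differed by little more than the spread between libraries.

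Ratios within a library do not depend on how libraries are scaled. The log2 ratio of *Ackr3* to *Cxcr4* per kilobase was 1.25, 1.59 and 1.78 in wildtype replicates 1 to 3 and 1.36, 1.60 and 1.31 in mutant replicates 1 to 3. The group means differed by −0.11 (mutant minus wildtype), less than the pooled SD of 0.22, and the 2-sided exact permutation test gave p = 0.7. The log2 ratio of ligand to *Cxcr4* was 2.36, 2.18 and 1.86 under the wildtype label and 2.26, 2.52 and 1.54 under the mutant label, a difference of −0.03 (exact permutation p = 1). That of ligand to *Ackr3* was 1.11, 0.59 and 0.08 under the wildtype label and 0.91, 0.91 and 0.23 under the mutant label, a difference of 0.09 (exact permutation p = 0.9). In none of the 3 ratios did the groups differ beyond the libraries' spread, and 3 against 3 allows no p under 0.1. Each difference changed sign when 1 library was left out, so no direction is read from them.

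Set among the chemokine family, *Cxcl12* had the highest level per kilobase of the 29 chemokine genes listed in the table. The next were *Ccl27a* at 9.24, *Ccl21a* at 8.86 and *Pf4*, a platelet chemokine gene, at 6.41 CPM per kilobase. *Ccl21a* and *Ccl27a* have near-identical copies in the mouse genome, so their counts are uncertain. *Ackr3* and *Cxcr4* were the first and second of 21 chemokine receptor genes, before *Cx3cr1*, the fractalkine receptor gene of macrophages, at 3.41 CPM per kilobase, *Ccr1* at 0.844 and *Ccrl2* at 0.570. Leukocyte and macrophage markers were low in these tissues. The 10 genes of that list summed to between 116 CPM in wildtype replicate 1 and 182 CPM in wildtype replicate 2, with *Csf1r* the most abundant at 33.7 CPM. Of the 10, 1 had an unadjusted p under 0.05 in edgeR, against 16.1% of all genes. None was called by edgeR, limma-voom or DESeq2's Wald test.

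None of the 18 other receptor genes tested was called by edgeR, and their median log2 fold change was −0.15. None of the 26 other chemokine genes tested was called either, with a median of −0.11. Over both lists 3 genes had an unadjusted p under 0.05 in edgeR, 1 higher and 2 lower under the mutant label, against 16.1% of all genes. No gene of either list was called by limma-voom or DESeq2's Wald test. Most of these genes were low, and 6 of the receptor genes and 8 of the chemokine genes averaged 1 CPM or more.

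**Figure D3:**
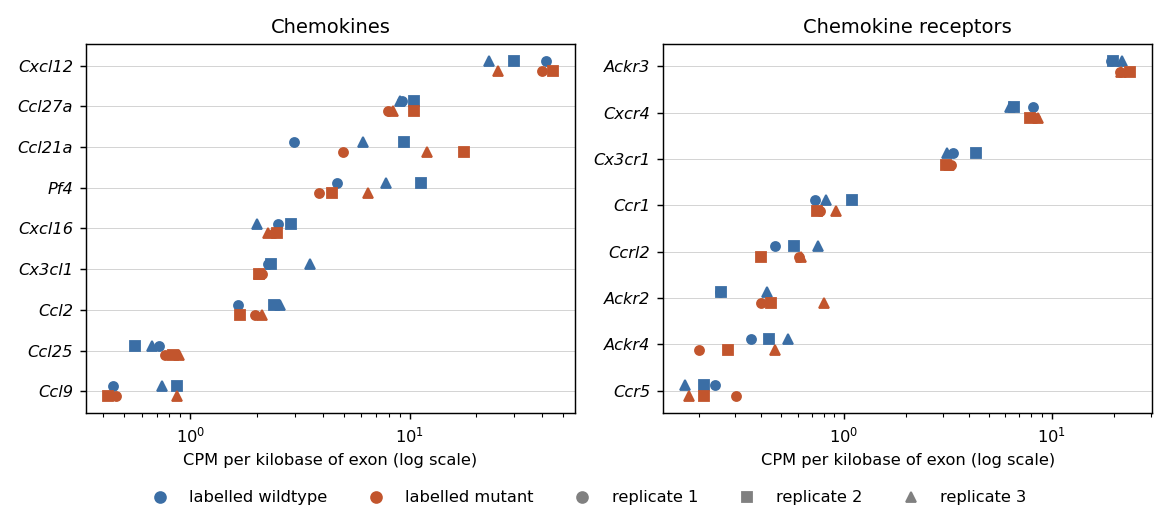
CPM per kilobase of exon on a log scale (horizontal axes) for the chemokine genes on the left and the chemokine receptor genes on the right that averaged 1 CPM or more, each library a point with its replicate's symbol, labelled wildtype in blue and mutant in orange. *Cxcl12* leads the chemokines at a mean of 34.2, and *Ackr3* and *Cxcr4* lead the receptors at 21.3 and 7.65 CPM per kilobase.

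Further genes of the axis were grouped by role. Among the other ligands of these receptors, *Mif*, a cytokine gene, had the highest level per kilobase and was at 132, 174 and 171 CPM under the wildtype label and 142, 121 and 118 CPM under the mutant label (log2 fold change −0.33, SE 0.13). *Hmgb1*, whose protein forms a complex with CXCL12, was at 266, 226 and 234 CPM and at 186, 193 and 209 CPM, without overlap (−0.30, SE 0.10). *Adm* encodes adrenomedullin, a peptide that ACKR3 also takes up. It was at 3.08, 3.90 and 3.48 CPM under the wildtype label and at 5.22, 5.50 and 6.29 CPM under the mutant label, again without overlap (0.70, SE 0.17). Of all genes, 10.7% were higher under the mutant label without overlap. The share that was lower without overlap, as *Hmgb1* was, is not given here. None of the 4 ligand genes tested was called by edgeR, and limma-voom called 0. An unadjusted p under 0.05 in edgeR was reached by 3 of the 4, against 16.1% of all genes, and the median log2 fold change was −0.32. DESeq2's Wald test called *Adm* alone (adjusted p = 0.0298 with Benjamini-Hochberg adjustment), against 0.181 by edgeR's quasi-likelihood test with the same adjustment and a range of 0.00842 to 0.642 over 16 alternative fits.

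The receptor signalling list holds G protein subunits, receptor kinases, arrestins, RGS proteins and effectors of migration. Of its 24 genes, all tested, 0 were called by edgeR, limma-voom or DESeq2's Wald test, and the median log2 fold change was 0.02. An unadjusted p under 0.05 in edgeR was reached by 1 of the 24, against 16.1% of all genes. The highest levels were those of the G protein subunit genes *Gnai2*, *Gnb1* and *Gnb2*, at 94.8, 91.3 and 60.9 CPM per kilobase, with log2 fold changes of −0.07 (SE 0.12), −0.06 (SE 0.09) and 0.04 (SE 0.11).

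The presentation and processing list holds heparan sulphate proteoglycans and the enzymes that modify them, which hold the chemokine at the cell surface, and proteases that cleave it. Of its 14 genes 0 were called by edgeR, limma-voom or DESeq2's Wald test, and the median was 0.07. An unadjusted p under 0.05 in edgeR was reached by 3 of the 14, all higher under the mutant label, and by 16.1% of all genes in either direction. *Mmp2*, a matrix metalloproteinase gene, was at 303, 252 and 187 CPM under the wildtype label and 339, 380 and 299 CPM under the mutant label (0.46, SE 0.16), with wildtype replicate 3 lowest and mutant replicate 2 highest, as in *Cxcl12*. *Mmp14*, which encodes a membrane-bound protease of the same family, had a log2 fold change of 0.39 (SE 0.16). The gene of the proteoglycan perlecan, *Hspg2*, was at 53.1 CPM per kilobase with a log2 fold change of 0.17 (SE 0.10).

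The list of upstream regulators had 8 genes, of which 0 were called by edgeR, limma-voom or DESeq2's Wald test and 0 had an unadjusted p under 0.05, with a median of 0.02. *Hif1a*, whose protein activates *Cxcl12* and *Cxcr4* under low oxygen, was at 34.8 CPM per kilobase (log2 fold change −0.15, SE 0.10). *Vhl*, whose protein marks it for degradation, had a log2 fold change of 0.03 (SE 0.09), and *Yy1*, which encodes a zinc finger factor, of 0.01 (SE 0.09). Over the 50 axis genes tested in the 4 lists the median log2 fold change was 0.04, and 0 were called by edgeR or limma-voom. An unadjusted p under 0.05 in edgeR was reached by 7 of the 50, and by 16.1% of all genes.

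Neural crest and arterial cells, which respond to the chemokine, were also represented by marker lists. The neural crest and glia markers summed to 205, 215 and 275 CPM in wildtype replicates 1 to 3 and 184, 184 and 240 CPM in mutant replicates 1 to 3, with *Ets1*, which other cells also express, the most abundant at 107 CPM. The sums of the groups overlapped, since mutant replicate 3 lay above wildtype replicates 1 and 2. Their lower average under the mutant label was that of 1 gene, *Ednrb*, an endothelin receptor gene. *Ednrb* was at 53.5, 85.7 and 143 CPM under the wildtype label and 40.5, 25.8 and 79.3 CPM under the mutant label. Over the list 7 of the 9 genes were higher under the mutant label, with a median log2 fold change of 0.37. Of these, 2 (*Ngfr* and *Sox10*) were higher without overlap, as were 10.7% of all genes. The defining crest genes *Sox10* and *Tfap2b* were at no more than 1.25 and 0.133 CPM in any library, and *Foxd3* was not among the genes analysed here. Among arterial markers, *Unc5b*, a netrin receptor gene, was the most abundant at 327 CPM, and the 12 genes summed to 807, 806 and 809 CPM under the wildtype label and 878, 897 and 862 CPM under the mutant label. *Unc5b* itself was at 318, 277 and 224 CPM and at 391, 401 and 352 CPM, a wider gap than that of the sums, while 7 of the 12 genes were higher and 5 lower, with a median of 0.21. None of the 9 crest or 12 arterial markers tested was called by edgeR or limma-voom. DESeq2's Wald test, which called 2.66% of all genes, called 0 and 3. An unadjusted p under 0.05 in edgeR, a mark for 16.1% of all genes, was reached by 3 crest markers (2 higher, 1 lower) and 7 arterial markers (4 higher, 3 lower). Their part in the levels of *Cxcr4* and *Ackr3* was not tested.

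The genes most like each of the 3 were found by the root mean square (RMS) difference of log2(CPM + 0.5) profiles over the 6 libraries, each centred on its mean, among the 16641 annotated genes that averaged 1 CPM or more. For *Cxcl12* these were *St8sia2*, which encodes a polysialyltransferase, *Sema3c*, a semaphorin gene, *Fzd1*, a Wnt receptor gene, *C330011M18Rik* and *Pnpla3*, at RMS differences of 0.08 to 0.10 where the gene's own RMS about its mean was 0.37. *Sema3c* was at 85.3, 70.5 and 47.5 CPM under the wildtype label and 84.3, 88.7 and 55.1 CPM under the mutant label, with replicate 3 lowest in each group, as in *Cxcl12*. For *Cxcr4* they were *Amn1*, *Taf1d*, *Phc3*, *Atg2b* and *Map3k2* (0.03 to 0.04, own RMS 0.16), and for *Ackr3* they were *Adamtsl3*, *Gm11889*, *Rab24*, *Neurl4* and *Etv3* (0.02 to 0.03, own RMS 0.10). The RMS difference counts the size of a gene's spread as well as the shape of its profile, and the 3 genes differed in their own RMS. Their ranks therefore cannot tell whether the 3 genes rose and fell together. By this measure *Cxcr4* ranked 3756th and *Ackr3* 6512th in likeness to *Cxcl12*. *Ackr3* ranked 4881st in likeness to *Cxcr4*, and *Cxcr4* ranked 7149th in likeness to *Ackr3*. With Pearson's r in place of the RMS difference, 0 of the 5 genes named for *Cxcl12* and 1 of the 5 for each receptor gene were again among the first 5.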

How the data were processed

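By the submitters' processing notes, paired-end reads of stranded, ribosomal RNA-depleted libraries were aligned to mm10 with TopHat2 2.1.0 and counted on exons per gene. The deposited values are raw counts, and the strand setting is not given in the sources used here. Titles and descriptions number wildtype replicates 2 and 3 oppositely, and the titles were followed. Any match of replicate numbers 2 or 3 between the groups therefore holds by the titles only. No libraries of a group agreed within sampling noise (chi-square per degree of freedom of at least 7.61). Symbols, positions and exon lengths came from GENCODE M21, which holds 28723 of 28777 identifiers. edgeR 4.0.16 fitted genotype alone, with TMM, on the 28157 genes with more than 5 reads over all libraries, and calls needed an adjusted p of at most 0.05. Alternatives were DESeq2 1.42.0, limma 3.58.1, other scalings and filters, a GC content and length correction, a replicate block and leaving out libraries. Named were the 3 genes, both targeted genes, genes of the lists and the 5 most like each. In axis or family lists, values are given for the 3 highest per kilobase and any called. Within marker lists no rule chose among the genes, and those named were chosen after their values were seen, other than the most abundant. Members and lists were chosen with earlier results of these data known.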

Additional observations from a re-analysis of the deposited data

How the results depend on the processing

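*Cxcl12*, *Cxcr4* and *Ackr3* had a fold change above 0 and were not called under any of 17 alternatives each. Among these, the stricter threshold of 0.01 used the same fit and could change neither outcome. The log2 fold change ranged from 0.03 to 0.47 for *Cxcl12*, from 0.17 to 0.35 for *Cxcr4* and from 0.07 to 0.24 for *Ackr3*, and the adjusted p from edgeR, DESeq2 and limma with Benjamini-Hochberg adjustment was no lower than 0.205, 0.0773 and 0.269. With each library left out in turn, these extremes included *Cxcl12* at 0.03 to 0.47 and *Cxcr4* at 0.17 to 0.35, while *Ackr3* ran from 0.07 to 0.18. After correction for GC content and length *Cxcl12* was at 0.14 and *Cxcr4* at 0.33. The count of the 3 genes at an unadjusted p under 0.05 in edgeR was 0 and did not hold throughout. *Cxcr4* passed that mark with library size alone as the scale (0.0375), after the GC content and length correction (0.0242), and without wildtype replicate 1 (0.0108), and *Ackr3* passed it with library size alone (0.0350). Of all genes tested, 16.2%, 16.1% and 26.3% passed it under these 3 settings, against 16.1% with TMM and all libraries. The cause was not tested. The differences of the 3 ratios moved by less than their pooled SD under the alternatives run for them, though each crossed 0 with a library left out (−0.26 to 0.01 for *Ackr3* to *Cxcr4*, −0.23 to 0.26 for ligand to *Cxcr4*, −0.17 to 0.35 for ligand to *Ackr3*).

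The number of genes called over the whole table was 6 and changed with the setting. It was 2 at an adjusted p of at most 0.01, 749 by DESeq2's Wald test, and from 1 without mutant replicate 3 to 2593 without wildtype replicate 1. Among the axis genes it was 0, and 1 by DESeq2's Wald test (*Adm*), which called 2.66% of all genes. With a library left out the axis count ran from 0 to 4. The 4 (*Mmp14*, *Mmp2*, *Mif* and *Hs6st2*) were called without wildtype replicate 1, where 2593 of all 27450 genes tested were called. Among the other chemokine and receptor genes the number called was 0, and from 0 to 1 with a library left out (*Pf4*, without wildtype replicate 1). The list counts under alternatives were added, and the genes named with them chosen, after the values were seen, and the cause of the changes was not tested.

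The replicate numbers share no stated litter or day. Deviations from the group means of same-numbered libraries correlated across genes at 0.0962, 0.147 and 0.505 for numbers 1 to 3, and not every library correlated best with its own number, so the numbers were not taken to pair the libraries. With a replicate block, *Cxcl12* was at 0.22 (SE 0.12), *Cxcr4* at 0.24 (SE 0.13) and *Ackr3* at 0.13 (SE 0.11), none called. The replicate block called 1577 of the 28157 genes over the table. It called 5 of the 50 axis genes tested (*Mmp14*, *Adm*, *Mmp2*, *Dpp4* and *Rgs4*) and 1 of the 44 family genes tested (*Ccl21a*). With the correction for GC content and length added to the replicate block, the counts were 2280, 7 and 2, and *Cxcr4* had an unadjusted p of 0.00903, where 20.5% of all genes were under 0.05. With a replicate block on the numbers of the descriptions, 83 genes were called over the table, 0 among the axis genes and 0 among the other chemokine and receptor genes. At this depth 3 counts were 0.0675 to 0.0924 CPM in a library, and 2 of the other receptor genes and 1 of the other chemokine genes were at 3 or fewer counts in every library.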

Other observations

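The remaining marker lists of the OFT are given as values. Blood markers summed to 3769, 8509 and 7304 CPM in wildtype replicates 1 to 3 and to 4442, 4400 and 4504 CPM in mutant replicates 1 to 3, with *Hba-a1*, an alpha globin gene, the most abundant at a mean of 2055 CPM. Wildtype replicate 1 was thus the lowest of its group and lay below the libraries labelled mutant. *Pf4*, the platelet chemokine gene, was at 3.37, 8.09 and 5.61 CPM under the wildtype label and at 2.77, 3.20 and 4.67 CPM under the mutant label. Its lowest and highest libraries under the wildtype label were those of the blood list.

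Smooth muscle markers summed to between 1462 CPM in mutant replicate 2 and 2084 CPM in wildtype replicate 3, led by *Acta2* at 1303 CPM. That sum is mostly *Acta2* and *Cnn1*, and the mean centred log2 level over the 8 genes ran the other way at its ends, lowest in wildtype replicate 3 (−0.34) and highest in mutant replicate 2 (0.36), with 6 of 8 genes higher under the mutant label and a median log2 fold change of 0.20. Epicardial markers summed to between 253 CPM in wildtype replicate 1 and 412 CPM in wildtype replicate 2, led by *Upk3b* at 102 CPM. Lymphatic endothelial markers summed to between 109 CPM in mutant replicate 2 and 137 CPM in wildtype replicate 3, led by *Prox1*, which heart muscle also expresses. Neuronal markers summed to between 40.4 CPM in wildtype replicate 3 and 63.2 CPM in mutant replicate 2. The endoderm markers listed summed to no more than 1.11 CPM in any library. None of the genes of these 6 lists was called by edgeR's quasi-likelihood test, Benjamini-Hochberg adjusted, or by limma-voom. DESeq2's Wald test called 2 of the blood, 2 of the smooth muscle and 1 of the neuronal markers, and 2.66% of all genes. An unadjusted p under 0.05 in edgeR was reached by 5 blood (all lower), 4 smooth muscle (3 higher, 1 lower), 2 neuronal (1 higher, 1 lower) and 1 lymphatic (lower) markers. Of all genes, 16.1% reached it. The median log2 fold change was −0.55 for the blood, −0.14 for the epicardial, −0.23 for the lymphatic, 0.12 for the neuronal and −0.26 for the endoderm markers.

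*Ccl21a*, which encodes a chemokine of lymphatic vessels and has near-identical copies, varied more between the libraries of a group than *Cxcl12* did. It was at 2.59, 8.21 and 5.33 CPM in wildtype replicates 1 to 3 and at 4.30, 15.4 and 10.4 CPM in mutant replicates 1 to 3. With libraries numbered by their titles, replicate 1 was the lowest and replicate 2 the highest of each group.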
